A study of Mus musculus with 6 samples.

Results

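NOD-like receptors and the genes of the inflammasome were examined in C2C12 cells, a mouse myoblast line, after knockdown of CNN3. The 10 genes are a list of names, drawn up with earlier results of these data known, and no threshold on their values was used: the receptors Nod1, Nod2, Nlrc5 and Nlrx1, the kinase Ripk2, the inflammatory caspases Casp1, Casp4 and Casp12, the pore-forming protein gene Gsdmd and the adaptor gene Pycard. Of these, 8 are among the 11844 genes to which the listed transcripts belong. No transcript of Nlrx1 or Pycard is listed, and both genes were therefore not analysed here. RNA of 3 libraries of cells transfected with NC siRNA (siNC) was compared with that of 3 libraries of cells transfected with CNN3 siRNA (siCNN3). Both groups were grown in serum-rich medium, differentiated in horse serum and labelled as myotubes, so every library comes from siRNA-transfected cells and none from untransfected ones. The labels do not say which CNN3 siRNA was used or whether the libraries of a group come from separate cultures, so p-values measure only the spread between these libraries. The cells are 1 established line kept in culture, which limits them as a model of muscle.

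NOD-like receptors are cytosolic sensors of microbial products and of cell stress. NOD1 and NOD2 recognise fragments of bacterial peptidoglycan and signal through the kinase RIPK2 to NF-κB, whereas NLRC5 acts in the nucleus as a transactivator of MHC class I genes and NLRX1 resides at mitochondria. Other receptors of the family assemble inflammasomes with the adaptor encoded by Pycard, in which caspase-1 is activated and cleaves precursors of interleukins and gasdermin D. Mouse caspase-4, also called caspase-11, is activated by cytosolic lipopolysaccharide and cleaves gasdermin D as well. These genes are best known from macrophages and epithelia, and skeletal muscle cells are known to express several of them.

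Levels are given in FPKM (fragments scaled by transcript length and by the mapped fragments of the library), summed over the transcripts of a gene. Cnn3, the targeted gene, had 62.8, 61.4 and 62.8 FPKM in siNC and 19.04, 39.2 and 25.6 FPKM in siCNN3. Its mean level was 44.8% of that in siNC, with a log2 fold change of -1.19 (SE 0.242, limma adjusted p = 0.0665), and siCNN3 replicate 2 retained the highest level of the knockdown libraries. The total per library lay between 322621 and 355591 FPKM, and the number of reads is unknown. Over all tested genes, siCNN3 replicates 1 and 2 correlated with r = 0.9799, while siCNN3 replicate 3 correlated with the siNC libraries at 0.9412 to 0.9512 and with the other siCNN3 libraries at 0.9466 and 0.9559. Of 14 muscle markers, 12 were listed, with a summed level of 167.6 to 197.6 FPKM in siNC and 110.3 to 126.3 FPKM in siCNN3. Actc1 and Ttn were not listed. Des made up most of this sum (mean 117.2 FPKM in siNC and 91.3 FPKM in siCNN3). Chrna1 differed by a smaller ratio (12.7 and 10.9 FPKM). Other markers differed by larger ratios, among them Acta1 (28.4 and 5.72 FPKM), Tnnt1 (6.52 and 1.20 FPKM) and Myh3 (2.41 and 0.302 FPKM). In the siNC cells, labelled as myotubes, Myog had a mean of 2.18 FPKM and Ckm of 0.680 FPKM (0.725 and 0.0253 FPKM in siCNN3). In such bulk RNA, fewer cells of a type and less RNA per cell cannot be told apart. Of 18 macrophage and leukocyte markers, only Cd68, Lyz2 and Cd14 were listed (summed level 20.1 to 27.1 FPKM in siNC and 16.3 to 19.2 FPKM in siCNN3), and the defining markers Ptprc, Adgre1, Csf1r and Itgam were not. The endothelial markers had 1 of 4 listed (summed level 0.681 to 1.37 FPKM in siNC and 0.733 to 1.24 FPKM in siCNN3), and the epithelial markers had 2 of 4 (0.567 to 3.79 FPKM and 0.0935 to 0.973 FPKM).

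CNN3 knockdown cells had higher levels of Nlrc5, and this was the only gene of the 8 that passed the test across all genes. The caspase genes Casp1, Casp4 and Casp12 and the gasdermin gene Gsdmd were higher in every siCNN3 library than in any siNC library, but did not pass. The peptidoglycan receptors Nod1 and Nod2 and their kinase Ripk2 had overlapping groups. In counts, 1 of the 8 genes was called higher (limma on log2(FPKM + 1), adjusted p below 0.05), compared with 1.73% of the 11602 genes tested, and 0 were called lower, compared with 0.336%. At an unadjusted p below 0.05, 5 of the 8 were higher (9.96% of all tested genes) and 0 were lower (6.14%). The groups did not overlap, with siCNN3 higher, for the same 5 genes (13.8% of all tested genes), and with siCNN3 lower for 0 genes (9.34%). The median log2 fold change of the 8 genes was 0.64, compared with 0.03 over all tested genes. An exact permutation test of 3 against 3 libraries cannot give a p below 0.1, which is the value it gave for each of the 5 genes.

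**Figure D1:**
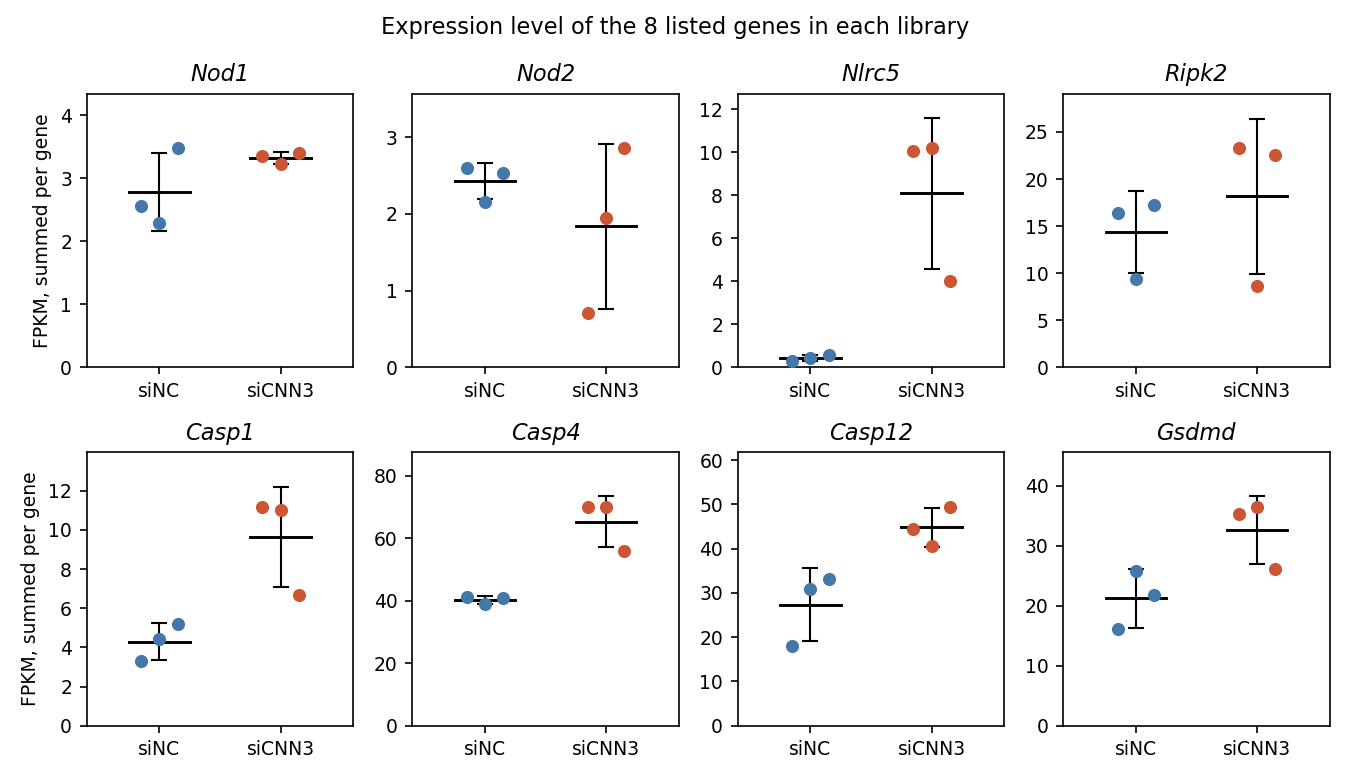
Level of the 8 listed genes in FPKM (vertical axes, each from 0 and scaled for its gene) in the 3 siNC (blue) and 3 siCNN3 (orange) libraries, 1 point per library, with the mean as a horizontal line and the SD as a bar. For Nlrc5, Casp1, Casp4, Casp12 and Gsdmd all siCNN3 points lie above all siNC points, whereas for Nod1, Nod2 and Ripk2 the groups overlap.

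Nod1 encodes the receptor for peptidoglycan fragments that carry meso-diaminopimelic acid. It lies on chromosome 6 of GRCm38 (54923949 to 54972612, minus strand), and 1 of its 6 annotated transcripts was listed. Nod1 had 2.56, 2.30 and 3.48 FPKM in siNC and 3.36, 3.22 and 3.39 FPKM in siCNN3. The siCNN3 libraries were close to each other and lay inside the siNC range. The log2 fold change of 0.21 had a 95% interval from -0.19 to 0.60 (limma adjusted p = 0.585). The exact permutation test gave p = 0.4. Leaving out siNC replicate 2 gave a log2 fold change of 0.12, and leaving out siNC replicate 3 gave 0.34.

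Nod2 encodes the receptor for muramyl dipeptide (chromosome 8, 88647315 to 88688474, plus strand), and 1 of its 4 annotated transcripts was listed. Nod2 had 2.60, 2.16 and 2.54 FPKM in siNC and 0.704, 1.95 and 2.86 FPKM in siCNN3. The siCNN3 group held both the lowest and the highest library, and the siNC libraries lay close together. Nod2 was the only one of the 8 genes with a log2 fold change below 0, at -0.35 with a 95% interval from -1.06 to 0.36 (limma adjusted p = 0.611). Without siCNN3 replicate 1, the library with the lowest level, the log2 fold change was -0.02, and without siCNN3 replicate 3 it was -0.61 (limma adjusted p = 0.224).

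Ripk2, the kinase that NOD1 and NOD2 recruit, lies on chromosome 4 (16122733 to 16163647, minus strand), with 1 of 2 annotated transcripts listed. Ripk2 had 16.4, 9.40 and 17.3 FPKM in siNC and 23.3, 8.62 and 22.6 FPKM in siCNN3. Replicate 2 was the lowest library of either group, and the other siCNN3 libraries were above all siNC libraries. The log2 fold change was 0.24 with a 95% interval from -0.71 to 1.20 (limma adjusted p = 0.806), the widest interval of the 8 genes. Its direction rested on single libraries, since it was -0.01 without siNC replicate 2 and 0.68 without siCNN3 replicate 2.

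Nlrc5, the MHC class I transactivator of the family, lies on chromosome 8 (94434356 to 94527272, plus strand). Nlrc5 had 0.289, 0.420 and 0.560 FPKM in siNC and 10.05, 10.2 and 4.01 FPKM in siCNN3. All siNC libraries were below 1 FPKM, and siCNN3 replicate 3 was the lowest of the knockdown libraries while remaining above every control. The mean rose from 0.423 ± 0.136 FPKM (SD, n = 3) to 8.08 ± 3.53 FPKM (SD, n = 3), a ratio of 19.1. On the log2(FPKM + 1) scale, where changes of weakly expressed genes come out smaller, the fold change was 2.59 (SE 0.326, 95% interval 1.81 to 3.36, limma adjusted p = 0.0157).

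The call of Nlrc5 depended on single libraries and on the variance shared between genes. With each gene's own variance alone, a fit that called 0 of all genes, its adjusted p was 0.137. With 1 library left out, the log2 fold change lay between 2.39 and 2.97, and the gene was called in 2 of 6 cases. The limma adjusted p was 0.0702 without siNC replicate 1, 0.0835 without siNC replicate 3, 0.0703 without siCNN3 replicate 1 and 0.0747 without siCNN3 replicate 2. The interferon response was also higher in the siCNN3 libraries. The mean log2 level of 22 interferon response genes, relative to the siNC mean, was -1.17, 1.21 and -0.03 in the siNC libraries and 3.88, 4.16 and 3.10 in the siCNN3 libraries. Within siNC the interferon level was highest in replicate 2, and Nlrc5 was highest in replicate 3. The part of the interferon response in the level of Nlrc5 was not tested.

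Nlrc5 had 4 of 9 annotated transcripts listed, and the transcript that held most of its level differed between the siCNN3 libraries. Nlrc5-207, which has 53 exons, had 5.75, 0.482 and 0.137 FPKM in siCNN3 replicates 1, 2 and 3 and 0.235, 0.420 and 0.374 FPKM in siNC. Nlrc5-201, which has 49 exons, was listed at 0 in all siNC libraries and had 0.123, 8.20 and 3.28 FPKM in siCNN3. In siCNN3 replicate 1 the level was thus given mainly to Nlrc5-207, and in replicates 2 and 3 mainly to Nlrc5-201. Of all stretches of 31 bases in Nlrc5-201, 100% are also in Nlrc5-207, and both encode 5745 coding bases. Reads of that length from Nlrc5-201 therefore cannot be told apart from Nlrc5-207, and the division between them is uncertain. The sum per gene depends on it through the lengths of the transcripts, 6945 bases for Nlrc5-201 and 7578 for Nlrc5-207. The shorter Nlrc5-202 had 2.54, 1.19 and 0.439 FPKM in siCNN3 and at most 0.162 FPKM in siNC, a difference that did not pass on its own (limma adjusted p = 0.340). Of the 11 tested transcripts of these genes, 0 passed on their own, compared with 0.46% called higher and 0.0783% called lower of the 21723 transcripts tested. In the same limma fit, 5 of the 11 were higher at an unadjusted p below 0.05, compared with 6.79% of all transcripts. Nlrc5-204, at 1.64, 0.310 and 0.158 FPKM in siCNN3 and at most 0.0251 FPKM in siNC, was below the level needed for testing. A non-coding gene on the opposite strand, 9330175E14Rik, overlaps the start of Nlrc5. It was not listed, and the sources used here do not say whether counting used strand.

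**Figure D2:**
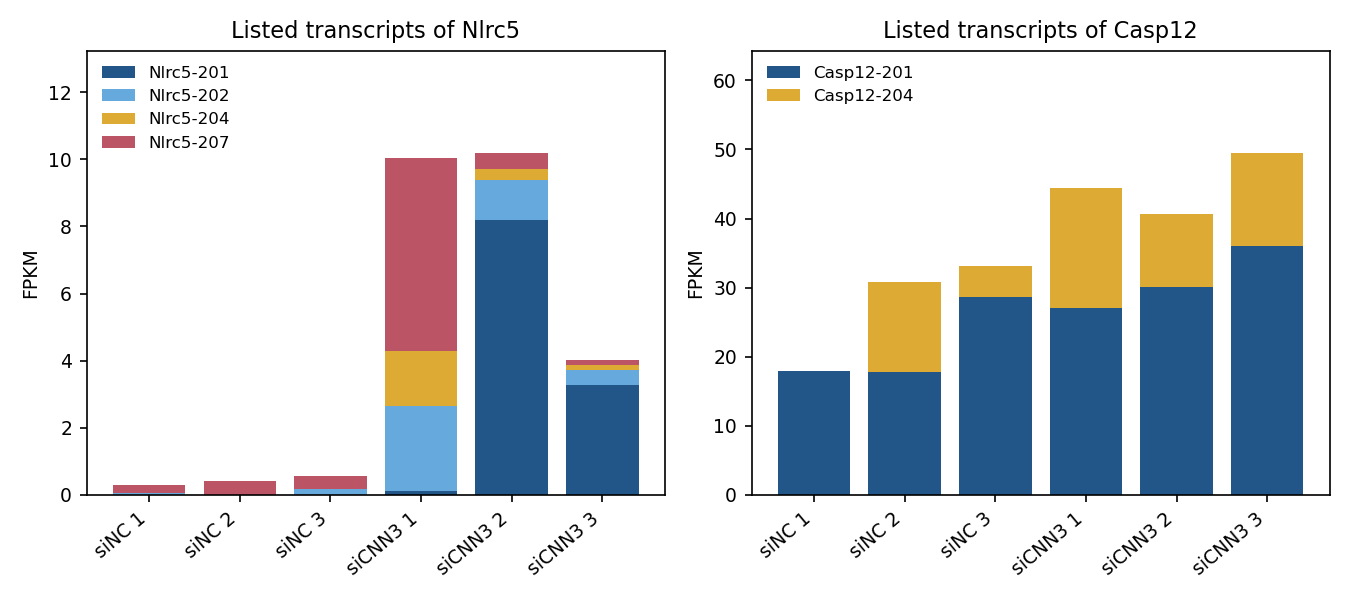
Level in FPKM (vertical axes) of each listed transcript of Nlrc5 (left) and Casp12 (right), stacked, in the 6 libraries on the horizontal axes. The largest part of Nlrc5 is Nlrc5-207 in siCNN3 replicate 1 and Nlrc5-201 in siCNN3 replicates 2 and 3, and Casp12-204 is at 0 in siNC replicate 1.

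Casp1, Casp4 and Casp12 lie side by side on chromosome 9 on the plus strand, within 74516 bases that hold no other annotated gene. The distance from the end of Casp1 to the start of Casp4 is 1562 bases, and that from Casp4 to Casp12 is 8646 bases. Their transcripts share 0 stretches of 31 bases with each other, so reads of that length can be assigned to 1 of these genes. All these neighbours had higher levels in siCNN3, with ratios of the group means between 1.62 for Casp4 and 2.25 for Casp1. The sequences before their starts are shown because the genes are neighbours and differed in the same direction. They come from the RefSeq promoter table of build GRCm38.p6, on the plus strand, cut before the first annotated base of the gene. Capitals mark a match to the NF-κB consensus in Casp4 and to the interferon-γ activated site (GAS, TTCNNNGAA) in Casp12:
Casp1, chr9:5298267-5298516: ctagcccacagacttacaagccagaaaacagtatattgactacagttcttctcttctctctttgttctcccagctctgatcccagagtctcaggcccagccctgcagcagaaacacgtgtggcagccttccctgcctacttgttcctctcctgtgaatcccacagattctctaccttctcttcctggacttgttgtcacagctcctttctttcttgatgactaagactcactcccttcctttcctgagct
Casp4, chr9:5308599-5308827: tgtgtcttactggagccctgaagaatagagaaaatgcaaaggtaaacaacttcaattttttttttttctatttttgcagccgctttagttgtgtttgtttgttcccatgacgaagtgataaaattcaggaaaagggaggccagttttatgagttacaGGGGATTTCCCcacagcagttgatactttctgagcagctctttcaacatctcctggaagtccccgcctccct
Casp12, chr9:5345226-5345429: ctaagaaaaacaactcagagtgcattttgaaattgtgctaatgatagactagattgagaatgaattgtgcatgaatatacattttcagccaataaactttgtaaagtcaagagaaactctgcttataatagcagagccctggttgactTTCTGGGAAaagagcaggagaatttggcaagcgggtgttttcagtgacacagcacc

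A search of both strands found these motifs in windows from 250 bases before to 50 bases after the RefSeq start, for which 7 of the 10 genes had an entry. The NF-κB consensus was found in Casp4, from -93 to -83 of its start, where overlapping matches cover the 11 bases in capitals, and in 4.51% of the 32851 promoters of the table. GAS was found in Casp12 from -102 to -94 and again from -36 to -28, in Nod1 at -193 to -185 of its second start, in Nlrx1, and in 8.3% of all promoters. The core of the interferon-stimulated response element (GAAA, any 2 bases, GAAA) was in 0 of the 7 genes and in 3.44% of all promoters. These matches describe letters in a window and not binding. Nlrc5, Gsdmd and Ripk2 had no entry in the promoter table.

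Casp1, the protease of the canonical inflammasome (5298517 to 5307265), has 1 annotated transcript, which was listed. Casp1 had 3.29, 4.41 and 5.19 FPKM in siNC and 11.2, 11.04 and 6.70 FPKM in siCNN3. The groups did not overlap, and as with Nlrc5 the lowest knockdown library was siCNN3 replicate 3. The mean was 4.29 ± 0.955 in siNC and 9.64 ± 2.55 in siCNN3 (FPKM ± SD, n = 3 each). The log2 fold change of 0.99 (SE 0.238, 95% interval 0.43 to 1.56) did not pass the test (limma adjusted p = 0.0980). It was called without siCNN3 replicate 3, at 1.21 (limma adjusted p = 0.0280), and in none of the other leave-one-out fits.

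Casp4, the lipopolysaccharide-responsive caspase (5308828 to 5336783), had the highest level of the 8 genes in both groups. Casp4 had 41.1, 38.9 and 40.8 FPKM in siNC and 70.01, 69.8 and 55.8 FPKM in siCNN3. The siNC libraries differed little, and all siCNN3 libraries were above them. The mean was 40.3 ± 1.23 in siNC and 65.2 ± 8.16 in siCNN3 (FPKM ± SD, n = 3 each). The log2 fold change was 0.67 (SE 0.126, 95% interval 0.38 to 0.97), with a limma adjusted p of 0.0517 that lay just outside the threshold. Without siCNN3 replicate 3 it was called at 0.78 (adjusted p = 0.0134), and also with genes under a mean of 5 FPKM left out (adjusted p = 0.0472). Only Casp4-201 of its 7 annotated transcripts was listed.

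Casp12, a caspase associated with the endoplasmic reticulum (5345430 to 5373032), had 18.0, 30.9 and 33.2 FPKM in siNC and 44.4, 40.6 and 49.5 FPKM in siCNN3. The groups did not overlap, and siNC replicate 1 was well below the other controls. The mean was 27.3 ± 8.18 in siNC and 44.8 ± 4.44 in siCNN3 (FPKM ± SD, n = 3 each). The log2 fold change was 0.73 (SE 0.234, 95% interval 0.18 to 1.29, limma adjusted p = 0.187). Without siNC replicate 1 it was 0.47 (adjusted p = 0.177).

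The level of Casp12 in siNC replicate 1 came from 1 transcript. Casp12-201 had 18.0, 17.7 and 28.6 FPKM in siNC and 27.1, 30.2 and 36.1 FPKM in siCNN3, so that the groups overlapped for it. Casp12-204 had 0, 13.1 and 4.61 FPKM in siNC and 17.3, 10.4 and 13.4 FPKM in siCNN3. A value of exactly 0 beside 13.1 FPKM in the same group can be a failed estimate, and without this transcript the log2 fold change of Casp12 was 0.54 (limma adjusted p = 0.285). The transcripts differ at a splice junction inside the coding sequence, where Casp12-204 leaves exon 2 of Casp12-201 (5346482 to 5346733) after base 5346523 and continues at 5348899, skipping 210 bases. Only 30 of the 1035 stretches of 31 bases in Casp12-204 are absent from Casp12-201, and all of them cross this junction. The junction is shown because these bases alone set Casp12-204 apart, with capitals for the bases after it:
Casp12-204, bases 35 to 94 of the transcript: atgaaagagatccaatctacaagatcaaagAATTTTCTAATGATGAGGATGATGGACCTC

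Gsdmd encodes the pore-forming substrate of caspase-1 and mouse caspase-4 (chromosome 15, 75862327 to 75867408, plus strand), and 1 of its 6 annotated transcripts was listed. Gsdmd had 16.1, 25.9 and 21.9 FPKM in siNC and 35.3, 36.5 and 26.1 FPKM in siCNN3. The groups did not overlap, but only narrowly, since siCNN3 replicate 3 had 26.07 FPKM and siNC replicate 2 had 25.88 FPKM. The mean was 21.3 ± 4.92 in siNC and 32.6 ± 5.72 in siCNN3 (FPKM ± SD, n = 3 each). The log2 fold change was 0.60 (SE 0.211, 95% interval 0.10 to 1.10, limma adjusted p = 0.226).

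**Figure D3:**
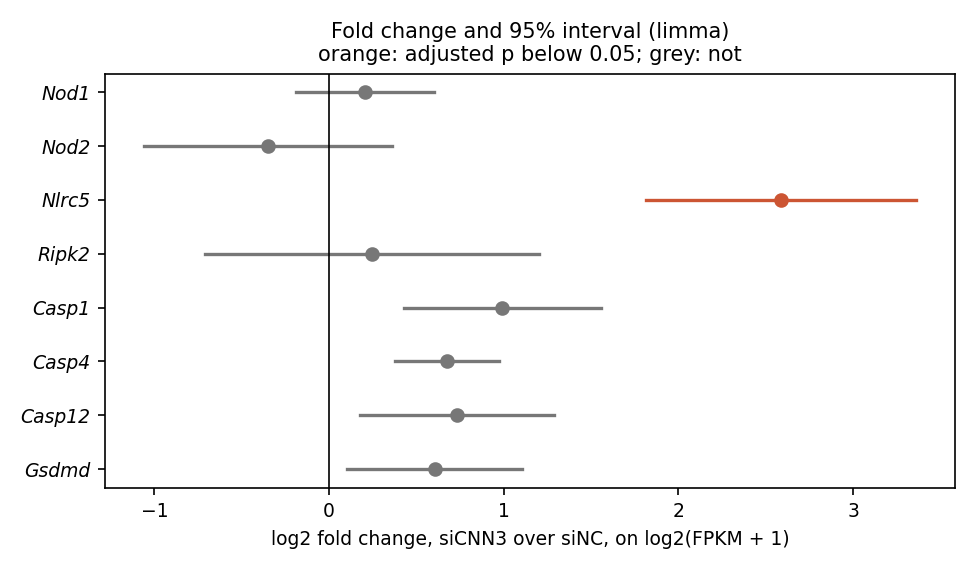
Log2 fold change of siCNN3 over siNC on the log2(FPKM + 1) scale (horizontal axis) with its 95% interval from limma for each of the 8 genes (vertical axis). Only Nlrc5, at 2.59, has an adjusted p below 0.05 (orange). The intervals of Casp1, Casp4, Casp12 and Gsdmd lie above 0, and those of Nod1, Nod2 and Ripk2 include 0.

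Because FPKM is a level per length of transcript, the genes can be ordered within a group. In siNC the order of mean levels was Casp4, Casp12, Gsdmd, Ripk2, Casp1, Nod1, Nod2 and Nlrc5. Casp12, Gsdmd and Ripk2 overlapped with their neighbours in this order, and so did Casp1, Nod1 and Nod2. In siCNN3 the order was Casp4, Casp12, Gsdmd, Ripk2, Casp1, Nlrc5, Nod1 and Nod2, so that Nlrc5 moved from the last place to above Nod1 and Nod2. In this group Ripk2 overlapped with Casp1, and Casp1 with Nlrc5. Gsdmd and the caspases other than Casp1 thus had higher levels than the receptors in both groups.

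The genes with the pattern most like each of these across the 6 libraries were found by Pearson's r of log2(FPKM + 1) over 10992 genes. The 6 points are the same libraries in 2 groups for every gene, so r is a description only. Nlrc5 was most like Llph (r = 0.9983), Slc3a2 (0.9980), an amino acid transporter heavy chain, and Stmn4 (0.9977). Casp4 was most like Ppef1 (r = 0.9982), the mitochondrial protease gene Lonp1 (0.9978) and the immunoproteasome gene Psmb8 (0.9976). Casp1 was like Mrps22 (r = 0.9966) and Gm15446 (0.9949). Casp12 was like Zfp64 (r = 0.9913) and Traf2 (0.9895), and Gsdmd was most like Gosr1 (0.9981), Rab21 (0.9976) and Oxr1 (0.9973). Nod1 was most like Rab23 (r = 0.9952), Tusc3 (0.9934) and Spata24 (0.9881), Nod2 most like Selenoi (0.9942), BC037034 (0.9880) and Nav2 (0.9819), and Ripk2 most like Lrp11 (0.9779), Nap1l1 (0.9725) and Atg16l2 (0.9593). Among the 8 genes themselves, Nlrc5 had r = 0.995 with Casp4 and 0.968 with Casp1.

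Of 23 other tested genes of the signalling route below NOD1 and NOD2, 0 were called higher (1.73% of all tested genes) or lower (0.336%), and at an unadjusted p below 0.05, 2 were higher (9.96%) and 0 lower (6.14%). These counts are near the background. Of the same genes, 2 had groups that did not overlap with siCNN3 higher (13.8% of all tested genes), and the median log2 fold change was 0.12. The largest increases were those of Rnf31 (0.87, limma adjusted p = 0.0932), a subunit of the linear ubiquitin ligase that RIPK2 signalling uses, and Ikbkg (0.51, adjusted p = 0.418). The largest decreases were those of Xiap (-0.87, adjusted p = 0.540), the ubiquitin ligase of RIPK2, and Ikbkb (-0.38, adjusted p = 0.672). Of a list of 7 transporter genes drawn up for the uptake of NOD ligands, only Slc15a4 (0.24) and Slc46a1 (-0.35) were listed and tested. Limma called 0 of these 2 (1.73% of all tested genes were called higher). At an unadjusted p below 0.05, 0 were higher (9.96%) and 0 lower (6.14%). The list therefore says little about such uptake.

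Few other sensors of the family were listed, 4 of 25 genes, among which Nlrp3, Nlrc4 and Ciita, named for their known roles and not by a rule, were not. Of the 3 tested, 0 were called (1.73% of all tested genes were called higher) and 1 was higher at an unadjusted p below 0.05 (9.96%), and Naip5, a sensor of bacterial flagellin, had the largest log2 fold change (0.59, limma adjusted p = 0.125), followed by Naip2 (0.25), with Nlrc3 at -0.06. Naip genes are close copies of each other, so the division of reads between them is uncertain. Of 20 tested genes of inflammasome assembly and regulation, 4 were called higher (1.73% of all tested genes), 0 were called lower, and the median was 0.28. The called genes included Zbp1 (4.60, adjusted p = 0.00473), a sensor of Z-form nucleic acids, Trim30a (4.19, adjusted p = 0.0305), known as a negative regulator of NLRP3, and Pstpip1 (1.85, adjusted p = 0.0224), a pyrin-binding protein. With 1 library left out the count lay between 1 and 4, and it was 1 when either of siNC replicates 1 and 3 or siCNN3 replicate 1 was left out and 2 when siCNN3 replicate 2 was. The largest decreases were those of Mavs (-0.39, adjusted p = 0.243) and Dpp9 (-0.12, adjusted p = 0.893).

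Of 5 other tested genes of gasdermins and cell lysis, 0 were called (1.73% of all tested genes were called higher), 1 was higher at an unadjusted p below 0.05 (9.96%), and the median was -0.10. Chmp4b, of the membrane repair machinery, had 0.53 (limma adjusted p = 0.103), Chmp3 had 0.06, Ninj1 had -0.51 and Gsdme had -0.26. Without siCNN3 replicate 3, 1 of these genes was called. Of 12 tested genes of the interleukin 1 family, 1 was called higher (1.73% of all tested genes) and 0 lower, with a median of 0.11. It was Il18bp, the secreted antagonist of interleukin 18 (3.37, adjusted p = 0.00993), followed by the interleukin 33 receptor gene Il1rl1 (1.25, adjusted p = 0.0854). This count was 0 without siNC replicate 3 and 2 without siCNN3 replicate 3. The largest decreases were those of Il33 (-0.71, adjusted p = 0.556) and Il1r1 (-0.36, adjusted p = 0.323). Il18 encodes a substrate of caspase-1 and was picked with its value known (0.89, adjusted p = 0.0983), and Il1b was not listed.

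Of 14 tested class I antigen presentation genes that NLRC5 is known to transactivate, 10 were called higher (1.73% of all tested genes) and 0 lower (0.336%). In 13 the groups did not overlap, with siCNN3 higher (13.8% of all tested genes), and the median log2 fold change was 2.14. H2-K1 rose by 3.01 (limma adjusted p = 0.00473), H2-D1 by 2.03 (adjusted p = 0.00473), and B2m, the light chain, by 1.87 (adjusted p = 0.00973). The peptide transporter Tap1 rose by 3.03 (adjusted p = 0.00973), and the immunoproteasome subunits Psmb8, Psmb9 and Psmb10 by 3.76, 3.68 and 2.73. H2-Q4, H2-T22 and H2-T23 were the other called genes (2.80, 2.19 and 1.56). Class I genes are close copies of each other, so reads may be divided between them uncertainly. The count was 5 without siNC replicate 3. These genes also respond to interferon, and the part of Nlrc5 in their levels was not tested.

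Of 12 tested guanylate-binding proteins and IRG GTPases, interferon-induced proteins that expose bacterial products to caspase-4, 5 were called higher (1.73% of all tested genes) and 0 lower, 11 had groups that did not overlap, with siCNN3 higher (13.8%), and the median was 3.56. They were Iigp1 (5.72, limma adjusted p = 0.0199), Gbp2b (3.71, adjusted p = 0.0154), Gbp2 (3.64, adjusted p = 0.00993), Gbp5 (3.37, adjusted p = 0.0305) and Gbp10 (2.95, adjusted p = 0.0490), and Gbp3 had the next largest value (4.02, adjusted p = 0.0769). With 1 library left out the count ran from 0, without siNC replicate 3 or siCNN3 replicate 2, to 10, without siCNN3 replicate 3. It was 2 without siNC replicate 1, 8 without siNC replicate 2 and 1 without siCNN3 replicate 1. Gbp genes are close copies as well. Of 10 tested NF-κB target cytokines and chemokines, 3 were called higher (1.73% of all tested genes) and 0 lower, with a median of 1.23. They were Ccl5 (5.41, adjusted p = 0.00354), Il6 (1.70, adjusted p = 0.0333) and Ccl7 (1.55, adjusted p = 0.0490), whereas Cxcl5 had -0.71 and Cxcl1 -0.21. Leaving out siNC replicate 3, or either of siCNN3 replicates 1 and 2, gave a count of 1. The part of NF-κB, or of the interferon response, in the levels of these cytokines and chemokines was not tested. Of the 22 interferon response genes themselves, 13 were called higher (1.73% of all tested genes) and 0 lower, and the median was 3.72. The count was 0 without siNC replicate 3, 1 without siCNN3 replicate 1 or siCNN3 replicate 2 and 6 without siNC replicate 1.

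**Figure D4:**
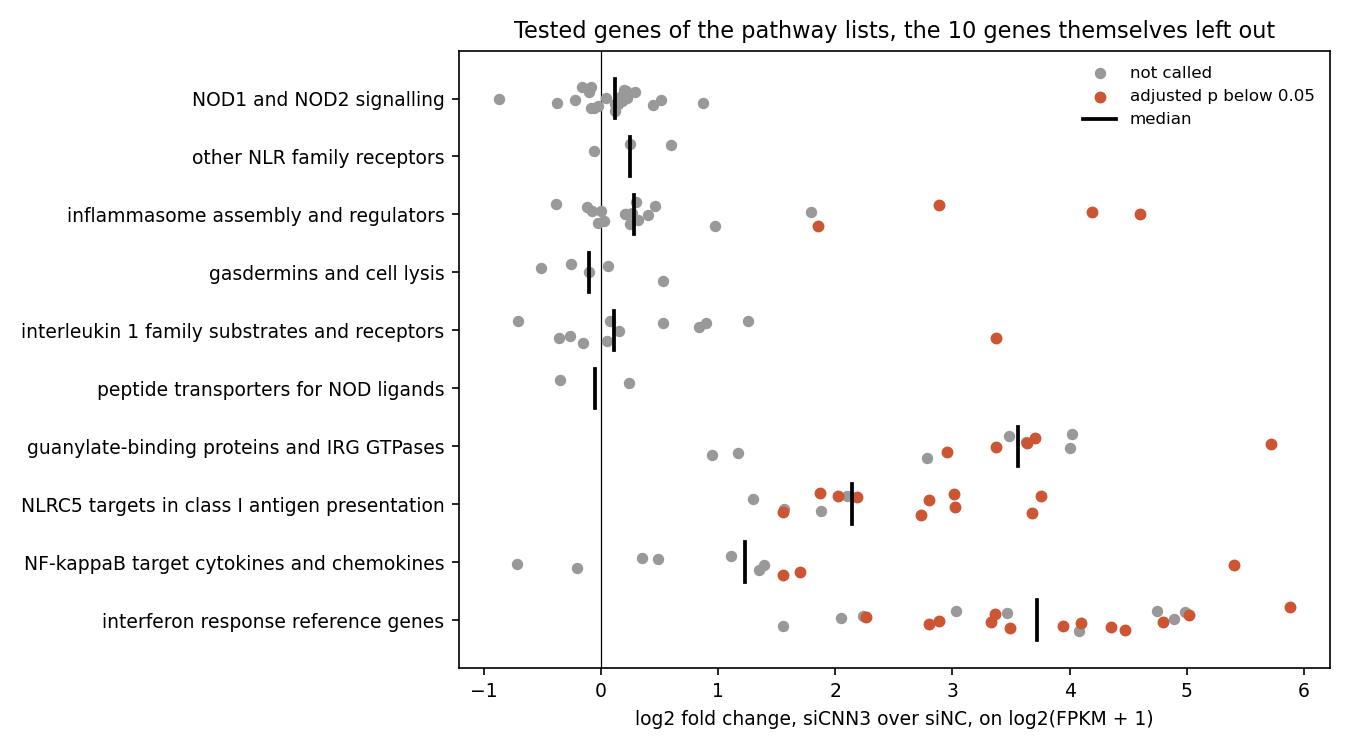
Log2 fold change of siCNN3 over siNC on the log2(FPKM + 1) scale (horizontal axis) for every tested gene of the 10 pathway lists (vertical axis), 1 point per gene, with called genes in orange and the median of a list as a vertical bar. The signalling genes below NOD1 and NOD2 lie around their median of 0.12 with 0 called, whereas the class I genes have a median of 2.14 with 10 of 14 called.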

How the data were processed

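RNA-seq libraries of C2C12 cells, 3 siNC and 3 siCNN3 by their titles, were analysed. The authors deposited FPKM for 24023 Ensembl transcripts. The submitters' processing notes name Bowtie 0.12.2 and the builds mm8 and mm10. The program that estimated FPKM, the annotation, read numbers and strand setting are not given in the sources used here, so the depth behind each value is unknown. Identifiers, without their version, were matched to GENCODE annotation of GRCm38 (23959 matched; the 64 unmatched carried 0.104% to 0.136% of a library's FPKM and were dropped), and FPKM were summed for 11844 genes.

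The 11602 genes averaging 0.5 FPKM or more were fitted as log2(FPKM + 1) by limma 3.58.1 under R 4.3.3 (mean-variance trend, Benjamini-Hochberg adjustment over all tested genes, threshold 0.05), and single genes with exact two-sided permutation tests. The fit was tested on simulated data. The 10 genes and the lists were chosen with earlier results of these data known. All 10 genes are named. Of each list, the called genes and up to 2 with the largest increase and decrease are named, as are the 3 genes most like each of the tested ones. A few genes that these rules name are not reported here. Promoters come from RefSeq (GRCm38.p6). Alternatives were a pseudocount of 0.1 FPKM, no filter or one at 5 FPKM, quantile normalization, median-of-ratios scaling, a replicate block, limma without a trend, each gene's own variance, each library left out, identifiers with their version and each transcript on its own. Leaving out of the sums those transcripts listed at 0 in a library although another library of the group had at least 10 FPKM was chosen after seeing the data. Tables and figures used Python 3.11.15, pandas 2.3.3 and matplotlib 3.10.9.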

Additional observations from a re-analysis of the deposited data

How the results depend on the processing

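The number of the 8 genes called higher was 1 (Nlrc5) in the fit reported and 0 with the replicate number as a block (limma adjusted p of Nlrc5 = 0.0556), with each gene's own variance and with each transcript tested on its own. It ran from 0 to 3 with 1 library left out, the 3 being Nlrc5, Casp1 and Casp4 without siCNN3 replicate 3, and 0 of the 8 were called lower under these alternatives. The count over all genes was 240, 68 with the block, 0 with own variance, and 20 to 609 with 1 library left out. Cnn3 lay between -1.46 and -0.95 with 1 library left out and was called without siCNN3 replicate 2 (limma adjusted p = 0.0477). Ripk2 lay between -0.0142 and 0.683 in the same fits. The other 7 genes kept their direction under all alternatives that gave a value. Of the called genes, 83.8% were higher (201 higher and 39 lower), compared with 68.3% after quantile normalization (200 and 93) and 77.8% with median-of-ratios scaling (221 and 63), so that the number of lower calls moved most.

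Called genes of the lists were 0 under own variance throughout. With the block they were 1 for inflammasome assembly, 1 for NF-κB targets and 5 for interferon response, which had 8 with a pseudocount of 0.1 FPKM, and NF-κB targets had 1 after quantile normalization. With 1 library left out they ran from 1 to 4 for inflammasome assembly, 0 to 1 for gasdermins, 0 to 2 for the interleukin 1 family, 0 to 10 for guanylate-binding proteins and IRG GTPases, 5 to 13 for class I presentation, 1 to 4 for NF-κB targets and 0 to 16 for interferon response. The cause of these differences was not tested, beyond the smaller number of libraries. Replicate numbers did not pair the libraries (r of same-numbered deviations -0.277, 0.314 and -0.0243). Gsdmd had no value with versions kept, and Nod1, Nod2 and Nlrc5 had none with the filter at 5 FPKM. Without read numbers, differences of genes under 1 FPKM, such as Nlrc5 in siNC, cannot be given a counting error.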
